A study of Mus musculus with 30 samples.

Results

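Livers of mice fed 5% casein were compared with livers of mice fed 20% soy protein, 2 diets that are both poor in methionine. The members were taken by their diet labels, LP (Cas-5%) and 20Soy (Soy-20%), and make up 12 of the 30 livers of the series, 6 per diet. Cas-5% supplied 5% of the diet as casein, with 0.15 g methionine and 0.1 g cysteine per 100 g, and Soy-20% supplied 20% as soy, with 0.22 g of each. Protein therefore differed 4-fold and methionine by less, with protein source and cysteine differing as well. By the study's formulation table, Cas-5% also held more corn starch and maltodextrin than Soy-20%. That table and the labels differ slightly on the methionine of Cas-5%. All mice were male C57BL6/J, singly housed, arrived at 9 weeks of age and were fed their diet from 12 weeks of age for 12 weeks, so that livers were taken at 6 months after a 4 h fast. During 2 weeks of acclimation the casein-fed mice received Cas-20% and the soy-fed mice Soy-20%. The Cas-5% mice were thus switched to a low-protein diet while the Soy-20% mice stayed on theirs, and this too is confounded with the comparison. For reference, 6 livers on Cas-20% (labelled NP, 0.57 g methionine) and 6 on Soy-10% (labelled 10Soy, 11.5% soy protein, 0.13 g methionine) were used. The supplemented Soy-20% + SAA livers were not compared with another diet by a test. Among the fits they entered only the alternative with all 30 livers, where they add to its variance estimate.

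When amino acids run short, uncharged tRNA activates the kinase GCN2, translation initiation slows and the transcription factor ATF4 induces genes for amino acid synthesis, amino acid uptake and tRNA charging. In liver this response includes the hormone FGF21. Hepatocytes also adjust the disposal of amino acid nitrogen through the urea cycle, which follows protein intake, and they use methionine as the source of the methyl donor S-adenosylmethionine and, through transsulfuration, of cysteine, glutathione and taurine. Casein is a milk protein, whereas soy protein is a plant protein low in methionine that carries other plant compounds with it.

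RNA was measured by 3′ end counting, so a gene's value does not distinguish isoforms that share a 3′ end, and levels are given as normalised read counts, comparable between livers for one gene. The 12 libraries held 7694015 to 12704890 counts (median 10407170). Their 10 most abundant genes took 24.8% to 29.2% of the counts. On the first principal component, with 41.4% of the variance, Cas-5% livers and Soy-20% livers did not overlap. On the second, with 9.9% of the variance, Soy-20% livers 1 and 6 lay at -10.7 and -11.6 and the other 4 Soy-20% livers at 0.8 to 12.9, while Cas-5% livers spread from -11.7 to 7.8. These 2 livers also held the highest Fasn and Thrsp, and results that rest on them are given without them too, an alternative added after the data were seen. Hepatocyte markers summed to 1011857 to 1229708 normalised counts on Cas-5% and 989008 to 1119876 on Soy-20%, and 15 pancreatic acinar markers together to at most 462, so the labelled tissue was borne out by its markers.

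Of 12030 genes tested, 2062 (17.1%) were called at an adjusted p of 0.05 or less by the edgeR quasi-likelihood test with Benjamini-Hochberg adjustment, the test behind every adjusted p given here. There were 851 genes higher on Cas-5% (7.07% of those tested) and 1211 lower (10.1%). A log2 fold change of 1 or more was reached by 87 of the higher genes (0.723%) and 145 of the lower (1.21%). In 1036 genes (8.61%) the diets did not overlap in any liver, with 339 higher on Cas-5% (2.82%) and 697 lower (5.79%). The median log2 fold change of all genes was 0.015. The genes described first are the 10 largest differences in each direction among called genes whose diets did not overlap. They were thus selected for their size and for not overlapping, so the lack of overlap stated for them follows from the selection.

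The largest rises on Cas-5% included enzymes that make serine and asparagine. Phgdh, the first enzyme of the pathway, measured 16.7 to 62.1 (median 39.4) on Cas-5% and 0 to 1.09 (median 0) on Soy-20%. It summed to 230 counts over the Cas-5% livers and 2 over the Soy-20% livers, a ratio of 109 after scaling for depth (95% counting interval 29.8 to 905, which covers counting error only). Psat1, the next enzyme, measured 130.5 to 172 (median 155) on Cas-5% and 4.02 to 12.6 (median 6.35) on Soy-20% (log2 fold change 4.30, SE 0.18, adjusted p = 6.4e-11). Asns, which makes asparagine, measured 247 to 351 (median 295) on Cas-5% and 15.1 to 29.6 (median 21.9) on Soy-20% (log2 fold change 3.73, SE 0.14, adjusted p = 5.3e-11). Every Cas-5% liver exceeded every Soy-20% liver for all 3 enzymes, by a wide margin. Aldh1l2, a mitochondrial folate enzyme, followed the same pattern at a lower level, with 21.1 to 53.4 (median 32.0) on Cas-5% and 2.11 to 8.36 (median 3.15) on Soy-20% (log2 fold change 2.95, SE 0.32, adjusted p = 9.3e-06).

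Lepr, the leptin receptor, which binds the adipocyte hormone leptin, was the largest rise outside amino acid and drug metabolism. It measured 156 to 271 (median 196) on Cas-5% and 4.18 to 16.1 (median 12.8) on Soy-20% (log2 fold change 4.08, SE 0.20, adjusted p = 6.5e-10). The diets were far apart, and the lowest Cas-5% liver lay above the highest Soy-20% liver. The Cyp2c genes Cyp2c69 (log2 fold change 4.67, SE 0.40, adjusted p = 6.7e-07) and Cyp2c40 (log2 fold change 3.25, SE 0.30, adjusted p = 1.5e-06) rose too, but Cyp2c genes are near-identical copies on chromosome 19 and the assignment of reads among them is uncertain. Cyp2c69 measured 56.1 to 184 (median 149) on Cas-5% and 1.05 to 16.1 (median 3.58) on Soy-20%, with the highest Soy-20% value in a single liver. The remaining rises were in transporters and a RING finger gene at low counts. Slc30a3, a zinc transporter, had a log2 fold change of 2.84, Slc34a2, a phosphate transporter, of 2.56, and Rnf225 of 2.56.

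The largest falls included genes of lipid storage, of the acute phase and of nicotinamide methylation. Nnmt, which spends S-adenosylmethionine to methylate nicotinamide, measured 22.9 to 38.6 (median 27.6) on Cas-5% and 314 to 584 (median 444) on Soy-20% (log2 fold change -3.97, SE 0.17, adjusted p = 1.4e-10). Orm1, the acute phase protein orosomucoid, measured 320.3 to 1337 (median 439) on Cas-5% and 4909 to 7669.7 (median 5841) on Soy-20% (log2 fold change -3.33, SE 0.28, adjusted p = 6.8e-07). The paralogs Orm1 and Orm2 may share reads. Cidec, a lipid droplet protein, measured 14.4 to 25.7 (median 20.6) on Cas-5% and 56.8 to 448 (median 173) on Soy-20% (log2 fold change -3.36, SE 0.43, adjusted p = 4.1e-05), and Thrsp, a nuclear regulator of lipogenesis, 352 to 1019 (median 491) on Cas-5% and 1221 to 8605 (median 2527) on Soy-20% (log2 fold change -2.77, SE 0.44, adjusted p = 0.0003). In these 4 genes no Cas-5% liver reached the lowest Soy-20% liver, although the Soy-20% livers themselves were widely spread for Cidec and Thrsp. Soy-20% livers 1 and 6 had 8605 and 8302 normalised counts of Thrsp and the other 4 at most 2814. Without these 2 livers the log2 fold change of Thrsp was -1.75 (adjusted p = 0.0003) and that of Cidec -2.95.

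**Figure D1:**
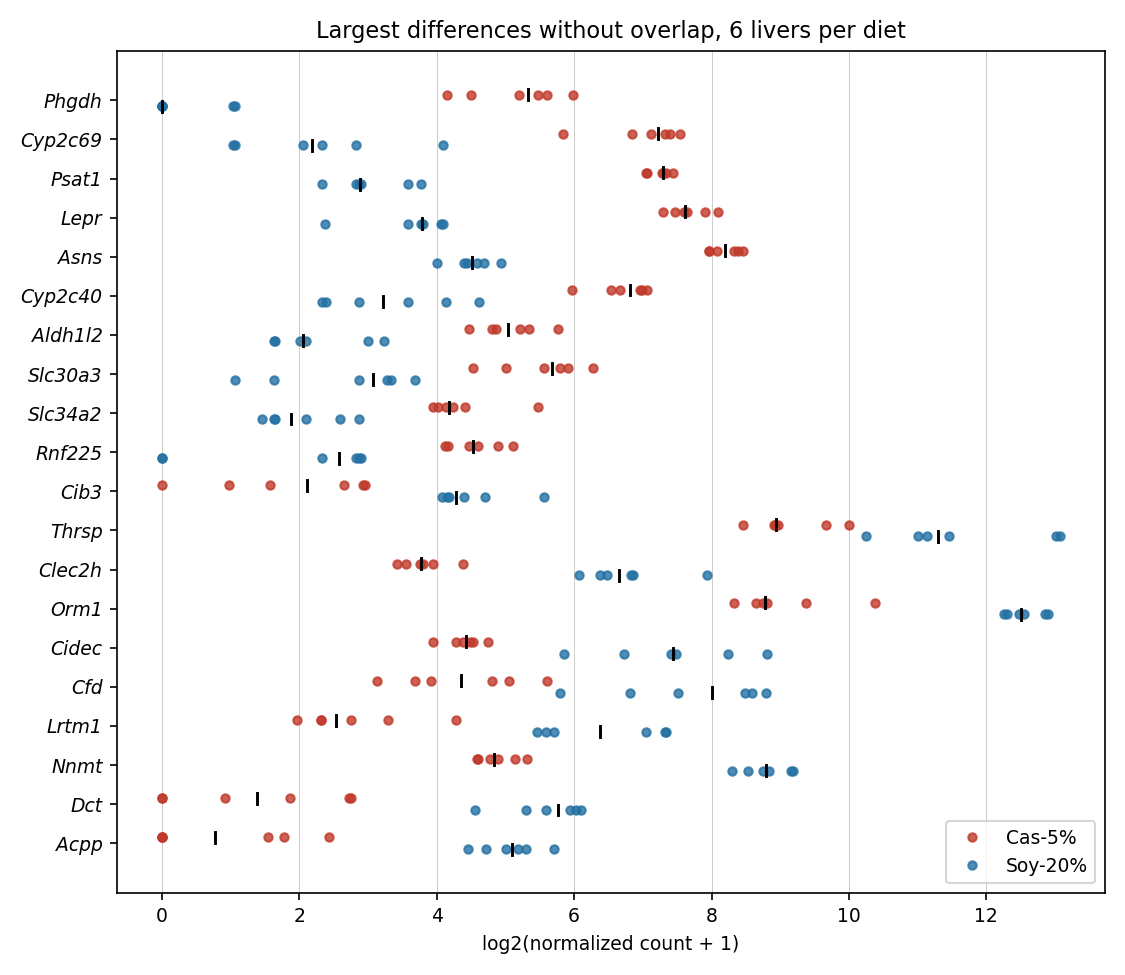
Normalised counts, as log2(count + 1) on the horizontal axis, of the 10 largest rises and 10 largest falls among called genes without overlap; each point is a liver, red for Cas-5% and blue for Soy-20%, and black ticks are medians. The genes were selected for not overlapping; Phgdh had at most 1.09 normalised counts in any Soy-20% liver and at least 16.7 in any Cas-5% liver.

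Acpp, an acid phosphatase, and Dct, an enzyme of melanin synthesis, were at or near 0 on Cas-5%. Acpp measured 0 to 4.40 (median 0.961) on Cas-5% and 20.9 to 51.3 (median 33.1) on Soy-20% (log2 fold change -4.29, SE 0.44, adjusted p = 4.4e-06), and Dct 0 to 5.76 (median 1.76) on Cas-5% and 22.5 to 67.4 (median 53.7) on Soy-20% (log2 fold change -4.21, SE 0.44, adjusted p = 6e-06). The low values of both genes rest on few counts, and the log2 fold change of Acpp was -4.93 without Cas-5% liver 6. Lrtm1, Clec2h and Cib3 had log2 fold changes of -3.65, -3.14 and -2.72. Cfd, the complement factor adipsin, measured 7.76 to 47.5 (median 20.5) on Cas-5% and 54.7 to 441 (median 270.1) on Soy-20% (log2 fold change -3.48, SE 0.49, adjusted p = 0.00011). Adipsin is made chiefly by adipocytes. Of 6 adipocyte markers 2 were in the table, and the other, Fabp4, was also called, with 100.3 to 185 (median 109) on Cas-5% and 136 to 273 (median 183) on Soy-20% (log2 fold change -0.57, SE 0.18, adjusted p = 0.035). The 2 markers summed to 114 to 232 on Cas-5% and 247 to 658 on Soy-20%, and the part of adipocyte RNA in the fall of Cfd or Cidec was not tested. In bulk livers, fewer cells of a type and less RNA per cell cannot be told apart. The call of Fabp4 was lost with the replicate numbers as a block (adjusted p = 0.056) and on leaving out any one of Soy-20% livers 1, 5 and 6 or Cas-5% livers 3 to 6 (adjusted p = 0.062 to 0.087). It was also lost without both Soy-20% livers 1 and 6 (log2 fold change -0.36, adjusted p = 0.19).

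The plot of shares called per list shows the ATF4 response, cytosolic ribosomal proteins, aminoacyl-tRNA synthetases and endoplasmic reticulum (ER) chaperones on the higher side. Amino acid breakdown, the respiratory chain, the urea cycle, fatty acid synthesis and the methionine cycle lay on the lower side. Counts for the lists below stand against 7.07% of all genes called higher and 10.1% called lower. For the lists given below as having no call in a direction, no member reached an unadjusted p of 0.05 in that direction and DESeq2 called none, except that 2 male-biased genes (1 called by DESeq2) were higher and 1 endothelial marker (not called by DESeq2) was lower at an unadjusted p below 0.05.

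**Figure D2:**
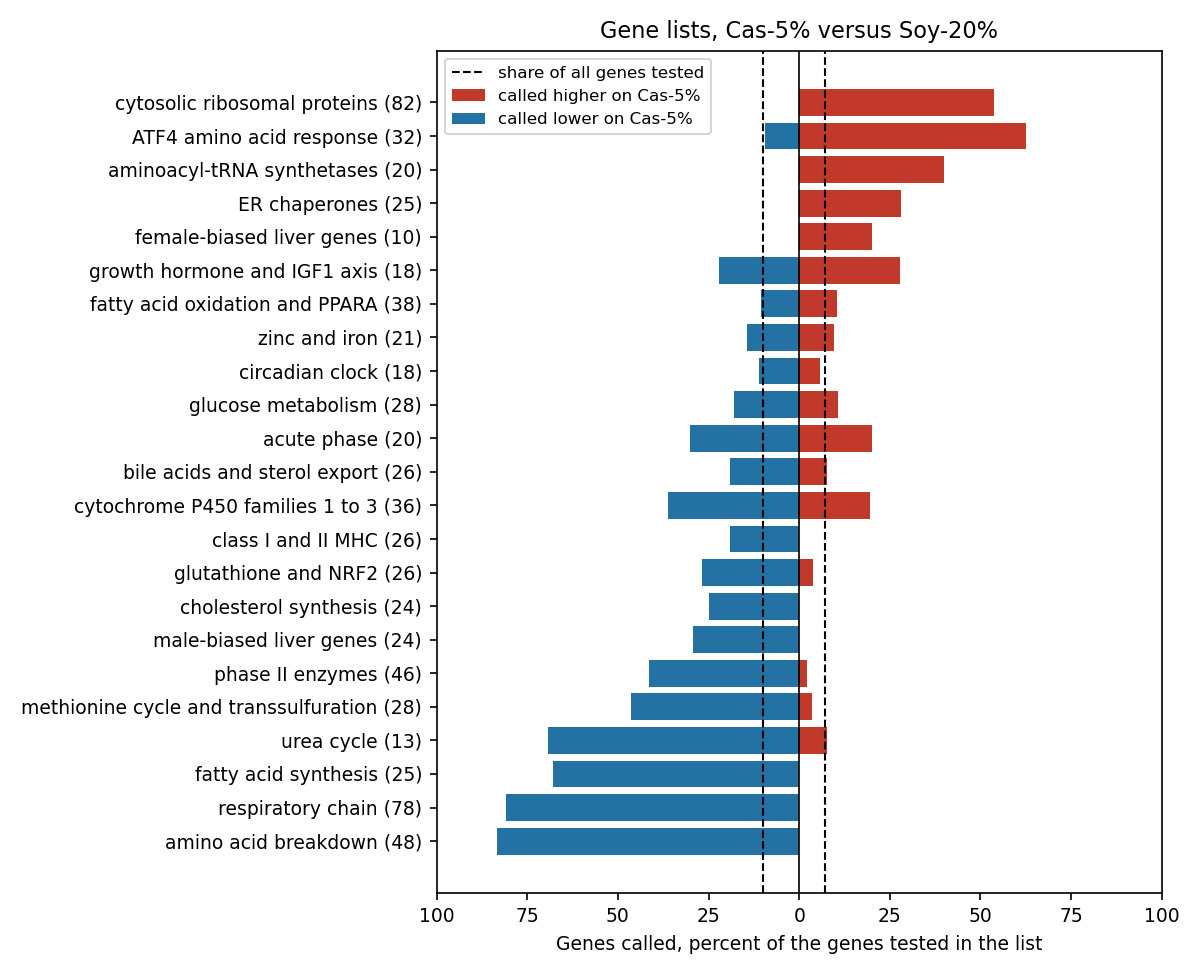
Percent of the tested genes of each list called higher (red, to the right) or lower (blue, to the left) on Cas-5% than on Soy-20%, for lists other than cell markers with 10 or more genes tested (number in parentheses); dashed lines are the shares of all genes, 7.07% and 10.1%. Amino acid breakdown reached 83.3% lower and the ATF4 list 62.5% higher.

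Of 32 tested members of the ATF4 list, 20 rose and 3 fell on Cas-5%, against 7.07% and 10.1% of all genes, and the median log2 fold change was 0.70 against 0.015. Atf4 mRNA itself was not called (log2 fold change 0.065, adjusted p = 0.7), nor was Ddit3, a stress-induced factor that ATF4 activates (0.29, adjusted p = 0.25). Next to Asns and Psat1 by adjusted p came Mthfd2, a mitochondrial folate enzyme, with 113 to 165 (median 144) on Cas-5% and 16.1 to 40.0 (median 30.7) on Soy-20% (log2 fold change 2.23, SE 0.16, adjusted p = 5.6e-08). Fgf21 measured 81.0 to 292 (median 162) on Cas-5% and 20.9 to 53.7 (median 43.7) on Soy-20% (log2 fold change 2.14, SE 0.29, adjusted p = 8e-05). Nupr1, a stress-induced chromatin protein, measured 101 to 134 (median 118) on Cas-5% and 14.1 to 33.9 (median 17.0) on Soy-20% (log2 fold change 2.52, SE 0.18, adjusted p = 5.6e-08). None of these 3 genes overlapped between the diets.

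Amino acid transporters of the list moved with the synthetic enzymes, unlike Slc38a3 and Slc38a4 of the urea cycle list, described below. Slc7a1, which carries cationic amino acids, had a log2 fold change of 1.77 (adjusted p = 3.7e-05). Slc7a5 and Slc3a2, the chains of the carrier of large neutral amino acids, had 1.43 (adjusted p = 0.0073) and 0.52 (adjusted p = 2.9e-05). Psph, the last serine enzyme, rose by 0.97 and Pck2, mitochondrial PEP carboxykinase, by 1.46. The falls were Cth, cystathionine gamma-lyase (log2 fold change -0.68, SE 0.13, adjusted p = 0.0013), Gpt2, an alanine transaminase (log2 fold change -0.46, SE 0.091, adjusted p = 0.002), and Cebpb, a bZIP transcription factor (log2 fold change -0.50, SE 0.17, adjusted p = 0.048). Cebpb overlapped between the diets, and its call was lost in the fit of all 30 livers (adjusted p = 0.087) and on leaving out any one of Soy-20% livers 1, 4 and 5 or Cas-5% livers 2 to 6 (adjusted p = 0.068 to 0.1). It was also lost without both Soy-20% livers 1 and 6 (adjusted p = 0.088).

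Promoters are shown for the genes of this list with the largest changes that the promoter table holds, because ATF4 acts at short elements near gene starts. They are from RefSeq on GRCm38.p6, 250 bases before the start, in the gene's direction, which was the minus strand for all 4, and capitals mark TGATGNAAN or its reverse complement on either strand.
Phgdh, chr3:98339970-98340219: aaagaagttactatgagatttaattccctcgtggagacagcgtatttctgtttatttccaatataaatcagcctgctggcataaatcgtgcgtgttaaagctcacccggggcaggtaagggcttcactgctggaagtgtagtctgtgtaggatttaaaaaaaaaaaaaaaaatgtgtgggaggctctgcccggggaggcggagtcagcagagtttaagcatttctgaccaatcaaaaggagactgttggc
Psat1, chr19:15925060-15925309, the first of 2 promoters listed: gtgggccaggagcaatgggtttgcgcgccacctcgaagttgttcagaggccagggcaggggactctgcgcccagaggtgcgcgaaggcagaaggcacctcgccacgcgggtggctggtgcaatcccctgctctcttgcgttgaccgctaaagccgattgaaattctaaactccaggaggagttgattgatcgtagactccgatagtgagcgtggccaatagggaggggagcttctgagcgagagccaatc
Asns, chr6:7693210-7693459: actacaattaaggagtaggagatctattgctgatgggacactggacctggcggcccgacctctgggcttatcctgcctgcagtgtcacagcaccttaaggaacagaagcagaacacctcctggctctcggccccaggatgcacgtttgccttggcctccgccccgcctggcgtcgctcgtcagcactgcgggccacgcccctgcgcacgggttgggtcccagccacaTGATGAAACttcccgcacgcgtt
Nupr1, chr7:126625471-126625720: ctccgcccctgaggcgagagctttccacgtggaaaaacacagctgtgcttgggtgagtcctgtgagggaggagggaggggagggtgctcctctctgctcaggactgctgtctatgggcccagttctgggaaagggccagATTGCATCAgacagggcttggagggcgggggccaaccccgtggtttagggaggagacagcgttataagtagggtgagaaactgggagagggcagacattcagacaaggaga
The stricter motif TGATGNAAT, either strand, was in 0.816% of 32851 promoters and, among first promoters of genes, in 0.825% of all and in 2 of 17 genes of the list that rose (Nupr1 and Fgf21). The wider TGATGNAAN, which includes the former and was chosen after the Asns promoter had been seen, was in 3.44% of promoters, in 3.51% of all first promoters, and in 4 of these 17 (23.5%; Asns, Nupr1, Fgf21 and Pck2). Over all 28 tested genes of the list with a promoter it was in 6 (21.4%), so the share among risen genes was near that of the whole list. Of the 20 genes that rose, 3 had no promoter in the table. It lay 23 bases before the start of Asns and 111 before that of Nupr1. No match in Phgdh and Psat1 says only that these letters are not in this window, and the matches are a description of the sequence.

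**Figure D3:**
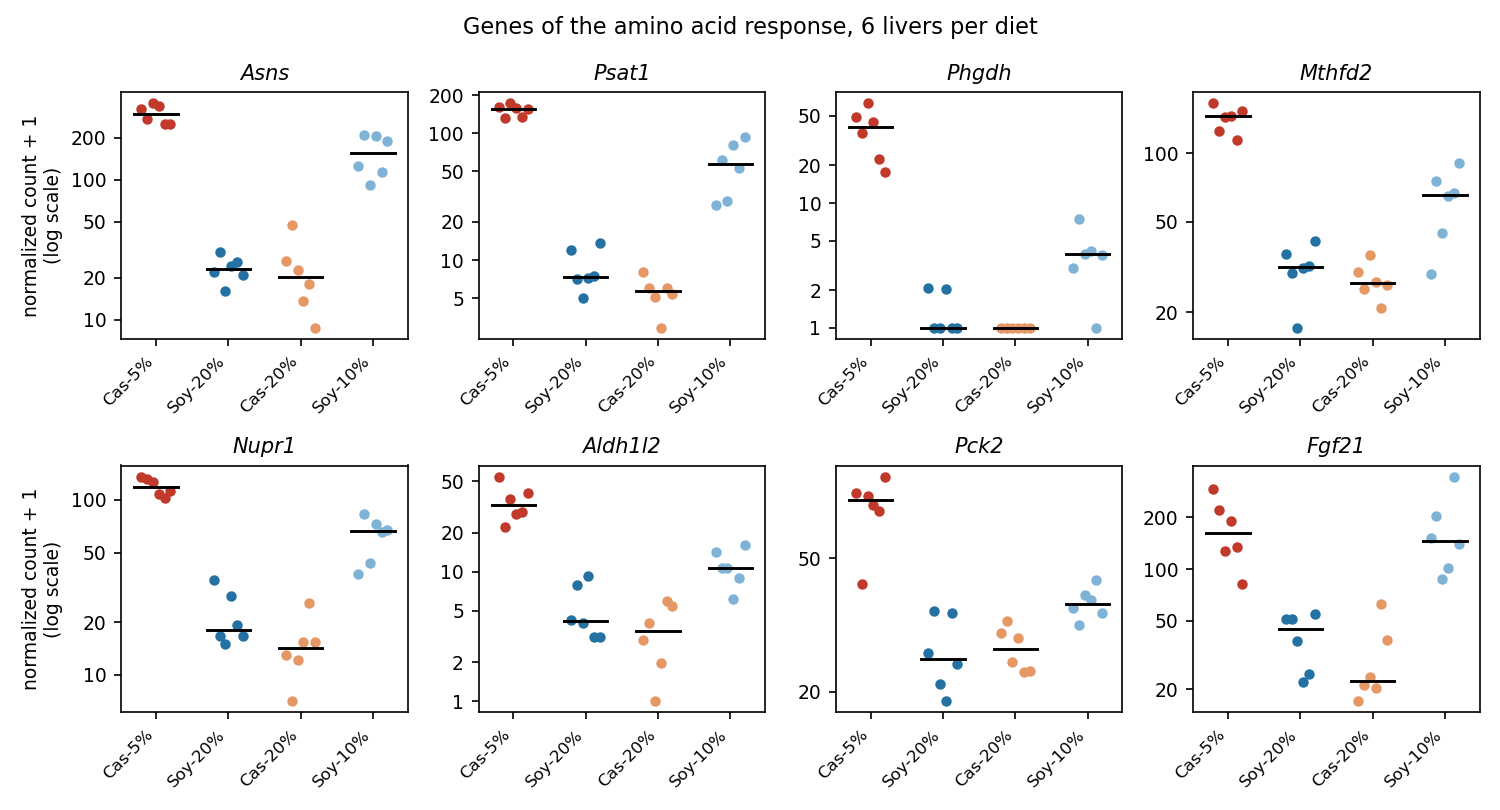
Normalised counts plus 1 (log axis) of 8 genes of the amino acid response in Cas-5%, Soy-20%, Cas-20% and Soy-10% livers; each point is a liver and black lines are medians. Cas-5% livers lay above Soy-20% livers in every panel, and Psat1 medians ran from 4.70 on Cas-20% and 6.35 on Soy-20% to 56.5 on Soy-10% and 155 on Cas-5%.

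Of 20 aminoacyl-tRNA synthetases, which charge tRNAs, 8 rose and none fell on Cas-5% (median log2 fold change 0.15), against 7.07% of all genes higher. Cars, for cysteine, rose most, with 297 to 344 (median 319) on Cas-5% and 122.6 to 219.6 (median 190.4) on Soy-20% (log2 fold change 0.82, SE 0.11, adjusted p = 5.5e-05). Sars, for serine (log2 fold change 0.54, SE 0.076, adjusted p = 0.00011), and Gars, for glycine (log2 fold change 0.51, SE 0.073, adjusted p = 0.00013), also had no overlap between the diets. These rises were smaller than those of Phgdh and Psat1.

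The methionine cycle and transsulfuration list held 28 genes, of which 13 fell and 1 rose on Cas-5% (median log2 fold change -0.19). Gnmt, which disposes of surplus S-adenosylmethionine, measured 9587 to 11755 (median 10477) on Cas-5% and 21614 to 24853 (median 23235) on Soy-20% (log2 fold change -1.12, SE 0.069, adjusted p = 1.6e-08). Bhmt, which remethylates homocysteine with betaine, measured 935 to 2675 (median 1863) on Cas-5% and 5028 to 10286 (median 8500.5) on Soy-20% (log2 fold change -2.13, SE 0.22, adjusted p = 4.9e-06). Ahcy, which hydrolyses S-adenosylhomocysteine, also fell (log2 fold change -0.62, adjusted p = 0.0002). All Cas-5% livers were below all Soy-20% livers for Gnmt and Bhmt. The S-adenosylmethionine synthetase Mat1a (log2 fold change 0.072, adjusted p = 0.71), the transsulfuration enzyme Cbs (-0.036, adjusted p = 0.82) and the cysteine dioxygenase Cdo1 (-0.047, adjusted p = 0.72) were not called.

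The single rise in this list was Csad, which makes the taurine precursor hypotaurine. It measured 11165 to 19357 (median 14472) on Cas-5% and 9645 to 12067 (median 11250.0) on Soy-20% (log2 fold change 0.47, SE 0.12, adjusted p = 0.0093), and 5 of 6 Cas-5% livers were above all Soy-20% livers. The reference diets showed how far this gene could range. It measured 1526 to 3288 (median 2115) on Cas-20% and 14258 to 16819 (median 15368) on Soy-10%, and 6154 to 11427 (median 7791) on Soy-20% + SAA, a soy diet with 0.58 g methionine. All 4 other diets thus lay far above Cas-20%, and Soy-20% + SAA overlapped Soy-20%.

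In the glutathione and NRF2 list 7 of 26 genes fell and 1 rose (median log2 fold change -0.10). The rise was in Gss, glutathione synthetase (log2 fold change 0.52, SE 0.086, adjusted p = 0.00044), while the rate-limiting glutamate-cysteine ligase genes Gclc (0.20, adjusted p = 0.17) and Gclm (0.16, adjusted p = 0.1) were not called. The falls were in glutathione transferases, the peroxidase Gpx1 and the efflux transporter Abcc3. Mgst1, a microsomal glutathione transferase, measured 21517 to 27063 (median 25449.7) on Cas-5% and 35080.1 to 42829.5 (median 38879) on Soy-20% (log2 fold change -0.62, SE 0.077, adjusted p = 3.6e-05), without overlap. Gstm2 had a log2 fold change of -0.72 (SE 0.16, adjusted p = 0.0048), with reads that may be shared among Gstm copies. The NRF2 target Nqo1 was not called (-0.13, adjusted p = 0.75).

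The urea cycle and ammonia list fell as a group, with 9 of 13 genes lower, 1 higher and a median log2 fold change of -0.65. Ass1, which joins citrulline and aspartate, measured 1236 to 1802 (median 1623) on Cas-5% and 4110.1 to 6365 (median 5065) on Soy-20% (log2 fold change -1.70, SE 0.12, adjusted p = 5.6e-08). Asl, the next enzyme, measured 828 to 1138 (median 926) on Cas-5% and 1571 to 2147 (median 1935) on Soy-20% (log2 fold change -1.0, SE 0.093, adjusted p = 1.8e-06). The cycle's other enzymes Cps1 (log2 fold change -0.72, SE 0.14, adjusted p = 0.002), Otc (log2 fold change -0.82, SE 0.082, adjusted p = 3.5e-06) and Arg1 (log2 fold change -0.71, SE 0.095, adjusted p = 6.8e-05) had smaller fold changes. Of these 5, only Cps1 overlapped between the diets, through the Cas-5% liver with the highest value. Gls2, liver glutaminase, measured 755 to 1018 (median 872) on Cas-5% and 1798 to 2705 (median 2367) on Soy-20% (log2 fold change -1.40, SE 0.094, adjusted p = 4.2e-08). The amino acid transporters on this list did not rise. Slc38a3 (log2 fold change -0.46, SE 0.071, adjusted p = 0.00023) and Slc38a4 (-0.65, SE 0.075, adjusted p = 1.4e-05) fell without overlap. Slc7a2 was not called (-0.26, adjusted p = 0.23). The gene that rose was Glud1, glutamate dehydrogenase (log2 fold change 0.33, SE 0.084, adjusted p = 0.011).

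Amino acid breakdown had the highest share called of the lists with 10 or more genes tested. All 48 tested genes had a negative log2 fold change, 40 fell, none rose, and the median was -0.55. Agxt, alanine-glyoxylate transaminase, measured 293 to 339.8 (median 313) on Cas-5% and 655 to 903 (median 886) on Soy-20% (log2 fold change -1.40, SE 0.079, adjusted p = 6e-09). Oat, ornithine transaminase, measured 1334 to 1768 (median 1543) on Cas-5% and 2838 to 3689 (median 3147) on Soy-20% (log2 fold change -1.05, SE 0.084, adjusted p = 3.5e-07), and Ftcd, an enzyme of histidine breakdown, 1442 to 1893 (median 1714) on Cas-5% and 2857 to 3258 (median 3168) on Soy-20% (log2 fold change -0.87, SE 0.071, adjusted p = 4.6e-07). The diets did not overlap in these 3 genes. The first enzymes of serine and histidine breakdown fell as well, Sds (log2 fold change -1.15, adjusted p = 0.00028) and Hal (-0.78, adjusted p = 4.6e-07). Tdo2, for tryptophan (-0.16, adjusted p = 0.29), and Tat, for tyrosine (-0.54, adjusted p = 0.067), were not called.

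Fatty acid synthesis genes were lower on Cas-5%, with 17 of 25 called lower, none higher and a median log2 fold change of -0.85. Scd1, the stearoyl-CoA desaturase, measured 17251 to 38820.3 (median 19176) on Cas-5% and 46954 to 79433 (median 61635) on Soy-20% (log2 fold change -1.46, SE 0.18, adjusted p = 3e-05), without overlap. Fasn, fatty acid synthase, measured 1022 to 1801 (median 1522) on Cas-5% and 1095 to 8006 (median 2382) on Soy-20% (log2 fold change -1.28, SE 0.36, adjusted p = 0.022). The Fasn ranges overlapped and 1 Cas-5% liver lay below all Soy-20% livers. Its call was lost without Soy-20% liver 1 (log2 fold change -0.88, adjusted p = 0.061), Soy-20% liver 6 (adjusted p = 0.056) or Cas-5% liver 3 (adjusted p = 0.051). Soy-20% livers 1 and 6 held 8006 and 6066 normalised counts and the other 4 at most 2544. Without both, Fasn was not called (log2 fold change -0.35, adjusted p = 0.25), Scd1 had a log2 fold change of -1.32, and the list had 12 falls and 1 rise.

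Among the other lipogenic genes, Acss2, which activates acetate, measured 449.5 to 861 (median 539) on Cas-5% and 848 to 2874 (median 1738) on Soy-20% (log2 fold change -1.53, SE 0.23, adjusted p = 0.00017). The regulator Srebf1 fell (log2 fold change -0.81, adjusted p = 0.0037), as did Acly, which cleaves citrate (-0.93, adjusted p = 0.039). Acaca, acetyl-CoA carboxylase, was not called (0.18, adjusted p = 0.58). In glucose metabolism 3 of 28 genes rose and 5 fell (median log2 fold change -0.009). Irs2, an insulin receptor substrate, measured 271 to 442 (median 349) on Cas-5% and 85.3 to 243 (median 159) on Soy-20% (log2 fold change 1.07, SE 0.18, adjusted p = 0.00043), without overlap. Irs1 rose too (log2 fold change 0.73, SE 0.15, adjusted p = 0.0025), while the gluconeogenic genes Pck1 (0.24, adjusted p = 0.35) and G6pc (0.32, adjusted p = 0.16) were not called.

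Cholesterol synthesis genes had smaller differences. Of 24 genes 6 fell and none rose (median log2 fold change -0.43), and 3 fell without Soy-20% livers 1 and 6. Ebp, a sterol isomerase, measured 1785 to 2172 (median 1983) on Cas-5% and 2524 to 3667 (median 3052) on Soy-20% (log2 fold change -0.59, SE 0.087, adjusted p = 0.00018). Tm7sf2 (log2 fold change -0.75, SE 0.14, adjusted p = 0.0014) and Dhcr7 (log2 fold change -0.88, SE 0.21, adjusted p = 0.0081), both sterol reductases, also fell, the latter with overlap.

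Fatty acid oxidation and targets of the nuclear receptor PPARA showed no common direction, with 4 of 38 genes higher, 4 lower and a median log2 fold change of -0.001. Each share was 10.5%, near the 7.07% higher and 10.1% lower of all genes. The rises included the omega-hydroxylase genes Cyp4a31 (log2 fold change 2.11, SE 0.26, adjusted p = 3e-05) and Cyp4a14 (log2 fold change 1.51, SE 0.29, adjusted p = 0.0016), whose reads may be shared with other Cyp4a copies, and Angptl4, an inhibitor of lipoprotein lipase (log2 fold change 0.69, SE 0.14, adjusted p = 0.0021). Cyp4a14 overlapped between the diets, through 1 Cas-5% liver. The carnitine transferase Cpt1a (-0.033, adjusted p = 0.86) and Ppara (0.004, adjusted p = 0.99) were not called. Without Soy-20% liver 3 the count of rises was 9, and the call of Angptl4 was lost in the fit of all 30 livers (adjusted p = 0.14).

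Cytosolic ribosomal protein genes rose by small, even amounts. Of 82 genes, 44 were called higher and none lower, 79 had a positive log2 fold change, and the median was 0.25. Rps3a1 measured 1126 to 1389.5 (median 1201) on Cas-5% and 821 to 1015 (median 920.1) on Soy-20% (log2 fold change 0.42, SE 0.071, adjusted p = 0.00054). Rpsa behaved alike (log2 fold change 0.35, SE 0.069, adjusted p = 0.0019), with no overlap in either gene. The genes called had log2 fold changes of 0.21 to 0.45. Without Soy-20% livers 1 and 6, 19 were called. Ribosomal protein genes have many processed pseudogenes, so their counts depend on how reads with several matches were treated, which is not given in the sources used here.

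The nuclear-encoded respiratory chain moved the other way. Of 78 genes 63 fell and none rose, 76 had a negative log2 fold change, and the median was -0.31. Sdhb, a subunit of succinate dehydrogenase, measured 1931 to 2559 (median 2153) on Cas-5% and 3511 to 3844 (median 3801) on Soy-20% (log2 fold change -0.74, SE 0.075, adjusted p = 4.4e-06). Uqcr11, of complex III, measured 1259 to 1442 (median 1340.1) on Cas-5% and 1844 to 2116 (median 1876) on Soy-20% (log2 fold change -0.53, SE 0.061, adjusted p = 1.4e-05), and Atp5k, of ATP synthase, 3360.3 to 4165 (median 3539) on Cas-5% and 5194 to 5840.1 (median 5608) on Soy-20% (log2 fold change -0.58, SE 0.068, adjusted p = 1.7e-05). The highest Cas-5% liver was below the lowest Soy-20% liver in all 3. Among the 15 genes not called was Cox4i1, of complex IV (-0.17, adjusted p = 0.072).

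Of 25 ER chaperone genes 7 rose and none fell (median log2 fold change 0.19). Derl3, a component of ER-associated degradation, measured 22.4 to 62.5 (median 36.0) on Cas-5% and 6.03 to 14.2 (median 7.45) on Soy-20% (log2 fold change 2.18, SE 0.31, adjusted p = 0.00012), and did not overlap between the diets. Hyou1 (log2 fold change 0.50, SE 0.092, adjusted p = 0.0012) and Dnajc3 (log2 fold change 0.29, SE 0.073, adjusted p = 0.011), an inhibitor of the kinase PERK, changed less, and the major chaperone Hspa5 was not called (0.24, adjusted p = 0.14). In the fit of all 30 livers 3 genes were called, and the adjusted p of Hyou1 was 0.061.

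Cytochromes P450 of families 1 to 3 were split, with 7 of 36 genes on this list higher, 13 lower and a median log2 fold change of -0.16. Cyp2c genes were called in both directions, with Cyp2c29 lower (log2 fold change -0.62, adjusted p = 0.0011) beside the rises above. Cyp3a11, the main drug-metabolising Cyp3a gene, measured 10769.8 to 15208 (median 12560.2) on Cas-5% and 20340.1 to 43713 (median 34069) on Soy-20% (log2 fold change -1.34, SE 0.15, adjusted p = 8.1e-06). Cyp3a25 measured 2461 to 3157 (median 3069) on Cas-5% and 5585 to 7590.1 (median 5929.6) on Soy-20% (log2 fold change -1.07, SE 0.09, adjusted p = 5.6e-07), and Cyp3a59 44.8 to 63.4 (median 50.9) on Cas-5% and 153 to 378 (median 173) on Soy-20% (log2 fold change -2.10, SE 0.24, adjusted p = 1.3e-05). These 3 genes are neighbours on chromosome 5, at chr5:145854426-145879964, chr5:145977194-146009618 and chr5:146079257-146113287 (GRCm38), and may share reads. In none of them did the diets overlap. Cyp2f2 of the periportal zone fell (log2 fold change -0.91, SE 0.083, adjusted p = 1.5e-06), Cyp2c37 rose (log2 fold change 0.995, adjusted p = 1.1e-05), and Cyp2e1 (0.12, adjusted p = 0.48) was not called.

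Phase II enzymes, which conjugate drugs and metabolites, had 19 of 46 genes called lower, 1 (Sult1c2) higher, 26 not called and a median log2 fold change of -0.21. Inmt, which methylates indoles, measured 2300.2 to 3140.1 (median 2438) on Cas-5% and 4381 to 5927 (median 5421) on Soy-20% (log2 fold change -0.99, SE 0.10, adjusted p = 4.1e-06). Tpmt, which methylates thiopurines, measured 149 to 247 (median 197) on Cas-5% and 347 to 426 (median 379) on Soy-20% (log2 fold change -0.94, SE 0.10, adjusted p = 6e-06), and the glutathione transferase Gstk1 796 to 891 (median 843) on Cas-5% and 1278 to 1749 (median 1406) on Soy-20% (log2 fold change -0.75, SE 0.077, adjusted p = 4.9e-06). The diets did not overlap in any of these.

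Of 26 bile acid and sterol export genes, 2 rose (7.7%, against 7.07% of all genes) and 5 fell (19.2%, against 10.1%). The median log2 fold change was 0.023. Cyp39a1, an oxysterol hydroxylase, measured 139.7 to 315 (median 207) on Cas-5% and 54.8 to 90.1 (median 62.5) on Soy-20% (log2 fold change 1.79, SE 0.18, adjusted p = 4.5e-06). Slco1a4, an uptake transporter, measured 151 to 274 (median 206) on Cas-5% and 403 to 889 (median 552) on Soy-20% (log2 fold change -1.57, SE 0.18, adjusted p = 1.4e-05), and Slc27a5, which activates bile acids, differed less (log2 fold change -0.36, SE 0.057, adjusted p = 0.00031). Cyp7a1, the rate-limiting enzyme of bile acid synthesis, was not called (0.66, adjusted p = 0.17).

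In the growth hormone and IGF1 axis 5 of 18 genes rose (27.8%, against 7.07% of all genes) and 4 fell (22.2%, against 10.1%), with a median log2 fold change of 0.068. The list includes the leptin receptor Lepr, described above, which is counted among the rises. Ghr, the growth hormone receptor, measured 3436 to 4832 (median 4092) on Cas-5% and 4997 to 5762 (median 5414) on Soy-20% (log2 fold change -0.36, SE 0.076, adjusted p = 0.003), without overlap, and Igf1 fell (log2 fold change -0.32, adjusted p = 0.011). Igfbp3 fell (log2 fold change -0.57, SE 0.13, adjusted p = 0.0056), a call lost in the fit of all 30 livers (adjusted p = 0.16). Igfbp1 (log2 fold change 1.70, adjusted p = 0.0063) and Igfbp2 (0.79, adjusted p = 0.012), which bind IGF1, rose. Genes that male livers express more held 7 falls and no rise among 24 (median log2 fold change -0.31), led by Cyp4a12a, an omega-hydroxylase, with 1344 to 2418 (median 1731) on Cas-5% and 3171 to 4609.8 (median 4046) on Soy-20% (log2 fold change -1.16, SE 0.13, adjusted p = 1.2e-05). Cyp4a12b (log2 fold change -2.15, SE 0.24, adjusted p = 1.3e-05) is its close copy and Ugt2b1 (log2 fold change -0.66, SE 0.089, adjusted p = 6.9e-05) has near relatives too. Of 26 female-biased genes 10 were tested and 2 rose, Cyp4a14 and Prlr, the prolactin receptor (log2 fold change 0.49, SE 0.12, adjusted p = 0.0075).

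The acute phase list had 4 rises and 6 falls among 20 genes (median log2 fold change 0.017). Besides Orm1, Saa4 measured 1198 to 1500.3 (median 1324) on Cas-5% and 1671 to 2057 (median 1852) on Soy-20% (log2 fold change -0.46, SE 0.07, adjusted p = 0.00023) and Orm2 3.84 to 14.5 (median 9.26) on Cas-5% and 18.1 to 32.2 (median 27.6) on Soy-20% (log2 fold change -1.45, SE 0.25, adjusted p = 0.00065), both without overlap, and the serum amyloid genes Saa1 (log2 fold change -1.0, adjusted p = 0.0092) and Saa2 (-1.21, adjusted p = 0.001), near-identical copies, fell. In iron and zinc handling 2 of 21 genes rose (9.5%) and 3 fell (14.3%), near the 7.07% and 10.1% of all genes (median log2 fold change -0.065). Hamp2, a copy of the hepcidin gene, measured 31.7 to 222 (median 101) on Cas-5% and 231 to 718 (median 497) on Soy-20% (log2 fold change -2.18, SE 0.33, adjusted p = 0.00022), Hjv, a hepcidin inducer, fell (log2 fold change -0.61, SE 0.10, adjusted p = 0.00046), and the third fall was Ftl1, ferritin light chain. Hamp itself was not called (-0.07, adjusted p = 0.89), and the rises were the zinc importer Slc39a4 (log2 fold change 0.87, SE 0.20, adjusted p = 0.0058) and the metallothionein Mt2 (0.64, adjusted p = 0.039).

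Clock genes held 1 rise and 2 falls among 18 (median log2 fold change -0.16). These shares, 5.6% and 11.1%, were near the 7.07% and 10.1% of all genes. The falls were the repressors Bhlhe41, with 5.94 to 14.4 (median 8.94) on Cas-5% and 21.9 to 112 (median 30.9) on Soy-20% (log2 fold change -2.40, SE 0.45, adjusted p = 0.0014), and Bhlhe40 (log2 fold change -0.83, SE 0.14, adjusted p = 0.00053), and the rise was Nfil3, another repressor (log2 fold change 0.53, SE 0.14, adjusted p = 0.011). The core gene Arntl was not called (0.13, adjusted p = 0.81). Of 26 class I and II MHC genes 5 fell and none rose (median log2 fold change -0.10). H2-Q1 measured 25.2 to 41.4 (median 32.1) on Cas-5% and 50.4 to 149.5 (median 90.9) on Soy-20% (log2 fold change -1.54, SE 0.23, adjusted p = 0.0002), H2-Q10 differed by -0.47 (adjusted p = 0.00098) and B2m by -0.29 (adjusted p = 0.01). H2 genes are close copies and their read assignment is uncertain.

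Among markers of other cells of the liver, stellate markers had the most calls. None of 12 Kupffer and other immune markers tested was called, and they summed to 3155 to 4713 on Cas-5% and 2240 to 4550.0 on Soy-20%. Of 12 stellate markers 4 rose (33.3%, against 7.07% of all genes), all 12 had a positive log2 fold change (median 0.24), and the sums were 5248 to 6773 against 4542 to 5685. Colec11, a soluble lectin, measured 358 to 403 (median 370.5) on Cas-5% and 292 to 323 (median 317) on Soy-20% (log2 fold change 0.28, SE 0.058, adjusted p = 0.003), Reln had a log2 fold change of 0.48 and Dcn, a matrix proteoglycan, of 0.32. Of 12 endothelial markers 2 rose (median log2 fold change 0.18), Kdr, a VEGF receptor (log2 fold change 0.27, SE 0.071, adjusted p = 0.014), and Ehd3 (log2 fold change 0.21, SE 0.069, adjusted p = 0.046), whose call was lost with the replicate block (adjusted p = 0.087) and on leaving out any one of Soy-20% livers 2 to 6 or Cas-5% livers 3 to 5 (adjusted p = 0.052 to 0.12). Endothelial sums were 5087 to 5395 against 4298 to 5098. None of 5 cholangiocyte, 2 muscle and 1 acinar markers tested was called. Among 5 red cell markers 1 fell, Alas2, the erythroid heme enzyme (log2 fold change -0.83, SE 0.094, adjusted p = 1.3e-05), and red cell sums overlapped at 11505 to 19814 against 10120 to 28974. Of 12 hepatocyte markers 1 rose, Ahsg, the plasma protein fetuin-A (log2 fold change 0.46, SE 0.087, adjusted p = 0.0013), and 3 fell, among them Cps1 and Serpina1b (log2 fold change -0.33, SE 0.079, adjusted p = 0.0086). Alb was not called (0.26, adjusted p = 0.052).

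The pair of diets could be set against a second pair with no livers in common, in which casein was high and soy low. For Cas-20% minus Soy-10%, 2078 of 11932 genes were called (17.4%), 1056 higher on Cas-20% (8.85%) and 1022 lower (8.57%). A gene with the same direction in both pairs followed casein against soy, and a gene with opposite directions followed low against high protein. Source, amount, methionine, cysteine, starch and acclimation diet vary together, however, and cannot be told apart. Of 11806 genes tested in both pairs, 698 were called in both, which were 34.3% of the calls in the first pair and 33.9% of those in the second. There were 626 with opposite directions, 244 of them higher and 382 lower on the low-protein diets, and 72 with the same direction, 18 higher and 54 lower with casein. With 17.1% and 17.4% of genes called in the pairs, some would be called in both even if the pairs were unrelated. Neither the 626 nor the 72 was tested against that number, so the 72 are not shown to stand out. Over all 11806 genes 58.2% had opposite signs, with a correlation across genes of -0.40; genes are not independent replicates.

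**Figure D4:**
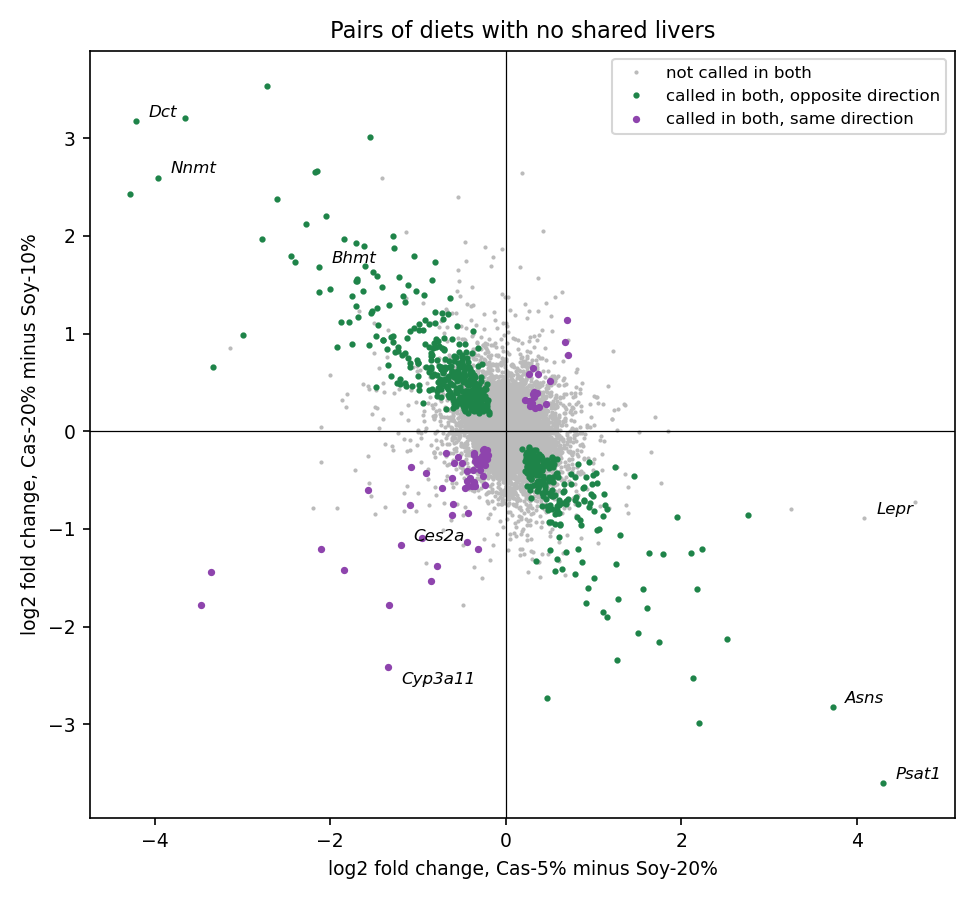
Log2 fold change of Cas-5% minus Soy-20% (horizontal) against Cas-20% minus Soy-10% (vertical), one point per gene tested in both pairs; green marks the 626 genes called in both with opposite directions, purple the 72 with the same direction and grey all others. The serine enzyme Psat1 lies at 4.30 and -3.60 and the drug enzyme Cyp3a11 at -1.34 and -2.42.

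Cyp3a11 was lower on casein in both pairs. In the second it measured 4586 to 8177 (median 6263) on Cas-20% and 25360.5 to 39786 (median 33478) on Soy-10% (log2 fold change -2.42, SE 0.14, adjusted p = 5.2e-08), so all livers on either casein diet were below all livers on either soy diet. The carboxylesterase gene Ces2a measured 1072 to 1456 (median 1239.9) on Cas-5% and 2211 to 3397 (median 2916) on Soy-20% (log2 fold change -1.20, SE 0.094, adjusted p = 3e-07). In the second pair it measured 1197 to 1511 (median 1431) on Cas-20% and 2644 to 3514 (median 3189) on Soy-10% (log2 fold change -1.17, SE 0.083, adjusted p = 4.3e-07). Casein and soy livers did not overlap in either pair. Another carboxylesterase, Ces1e, had log2 fold changes of -1.09 (adjusted p = 3.6e-08) and -0.76 (adjusted p = 1.7e-05). Both lie on chromosome 8, Ces2a at chr8:104734003-104741634 and Ces1e at chr8:93201218-93229619 (GRCm38), in families whose copies may share reads. Ugdh, which makes the glucuronic acid donor, had -0.44 (adjusted p = 0.002) and -0.84 (adjusted p = 7.8e-06), and Cyp3a59 -2.10 and -1.21.

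Genes in opposite directions included Bhmt, for which the second pair measured 10031 to 14194 (median 12407) on Cas-20% and 3338 to 4484 (median 3633) on Soy-10% (log2 fold change 1.68, SE 0.095, adjusted p = 5.2e-08). Dmgdh, the next enzyme of choline breakdown, measured 1008 to 1374 (median 1299) on Cas-5% and 2032 to 2629.5 (median 2186) on Soy-20% (log2 fold change -0.84, SE 0.087, adjusted p = 4.9e-06) and, in the second pair, 2613 to 3062 (median 2689.6) on Cas-20% and 1505 to 1689.8 (median 1559.7) on Soy-10% (log2 fold change 0.78, SE 0.059, adjusted p = 5.8e-07). The low-protein diet was lower in both pairs. Sulf2, a heparan sulfate 6-O-sulfatase, had log2 fold changes of -2.60 (adjusted p = 1.5e-06) and 2.38 (adjusted p = 1.4e-06), and Spc24, a kinetochore component, of -1.46 (adjusted p = 4.9e-07) and 1.26 (adjusted p = 4.6e-06). Pcp4l1 was the one of this group higher on low protein, with 2.20 (adjusted p = 3e-07) and -2.99 (adjusted p = 1.2e-06).

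The lists divided in the same terms. Amino acid breakdown had 40 of 48 genes lower on Cas-5% and 32 of 48 higher on Cas-20%, fatty acid synthesis 17 of 25 lower and 17 of 25 higher, and the urea cycle 9 of 13 lower and 10 of 13 higher. In fatty acid synthesis 1 gene, Cidec, was lower on Cas-20% as well as on Cas-5%. Cytosolic ribosomal proteins had 44 of 82 higher on Cas-5% and 55 of 82 lower on Cas-20%. The respiratory chain did not show this mirror image, with 63 of 78 lower on Cas-5% but 2 lower and 3 higher on Cas-20%, and a median log2 fold change of 0.034 in the second pair. Sdhb, for example, measured 3244 to 3925 (median 3588) on Cas-20% and 3108 to 3563 (median 3226) on Soy-10% (log2 fold change 0.14, SE 0.06, adjusted p = 0.11), with Cas-5% alone below these ranges. In the glutathione and NRF2 list both pairs had more genes lower with casein than higher, 7 against 1 of 26 and 14 against 2 of 26. The difference between lists was not tested.

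**Figure D5:**
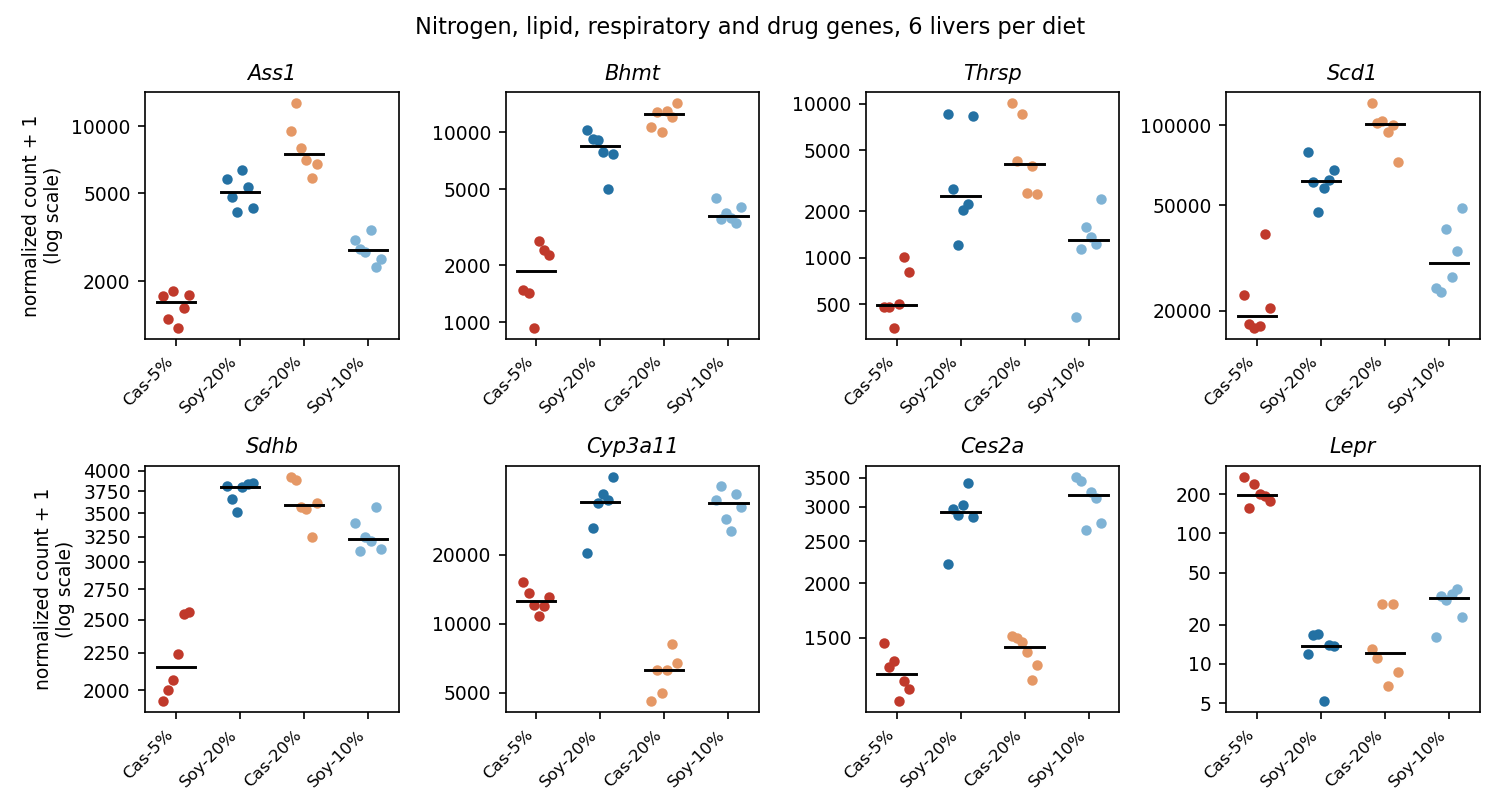
Normalised counts plus 1 (log axis) of 8 genes in Cas-5%, Soy-20%, Cas-20% and Soy-10% livers; each point is a liver and black lines are medians. Ass1, Bhmt and Scd1 were lower on both low-protein diets than on the 20% diets by their medians, Cyp3a11 and Ces2a were lower on both casein diets, and Sdhb and Lepr stood apart on Cas-5%.

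Some of the largest changes, and Fgf21, were followed into the second pair. Psat1 measured 1.93 to 7.01 (median 4.70) on Cas-20% and 26.4 to 93.1 (median 56.5) on Soy-10% (log2 fold change -3.60, SE 0.39, adjusted p = 1.5e-05), Asns 7.75 to 46.6 (median 19.2) on Cas-20% and 91.0 to 209 (median 156) on Soy-10% (log2 fold change -2.83, SE 0.31, adjusted p = 1.8e-05), and Fgf21 16.0 to 61.7 (median 21.4) on Cas-20% and 87.2 to 344 (median 144) on Soy-10% (log2 fold change -2.52, SE 0.37, adjusted p = 0.0002). In all 3 genes Soy-10% livers lay above Cas-20% livers. Lepr measured 5.79 to 27.9 (median 11.1) on Cas-20% and 15.2 to 36.5 (median 31.1) on Soy-10% and was not called in the second pair (log2 fold change -0.89, SE 0.34, adjusted p = 0.085), and the difference between the pairs was not tested. Nnmt measured 529 to 1534 (median 861) on Cas-20% and 74.1 to 291 (median 110.1) on Soy-10% (log2 fold change 2.60, SE 0.33, adjusted p = 5.8e-05). By medians its order was Cas-20%, Soy-20%, Soy-10% and Cas-5% from high to low. Cidec (log2 fold change -1.44, adjusted p = 0.038) and Cfd (-1.78, adjusted p = 0.022) were lower on casein in the second pair too. Of the other large falls, Acpp, Dct, Lrtm1, Orm1, Thrsp and Cib3 were called higher on Cas-20%, and Clec2h was not called (adjusted p = 0.071). Phgdh, at 0 in every Cas-20% liver and 0 to 6.46 normalised counts on Soy-10%, was too low to be tested in the second pair.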

How the data were processed

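Liver RNA of 30 male mice, 6 per diet, was sequenced by the authors with a QuantSeq 3′ forward kit and processed with the Bluebee QuantSeq pipeline 2.3.6 against GRCm38 (mm10). Aligner, counting program and annotation release are not given in the sources used here. The deposited counts are reads per gene for 14173 genes, each with at least 90 counts in total. The deposited normalised signal is the same table divided by DESeq2 size factors by the authors (DESeq2 1.30 and R 4.0.3 per the processing notes), and was used for levels. Gene positions are from GENCODE M21.

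The 12 libraries (7694015 to 12704890 counts) were grouped by label, each mouse being a replicate. In R 4.3.3, edgeR 4.0.16 (filterByExpr, TMM, quasi-likelihood F test, Benjamini-Hochberg adjustment at 0.05) was fitted to the raw counts of these 12 livers, and likewise to Cas-20% and Soy-10%. Each SE given was derived as the absolute log2 fold change divided by the square root of the F statistic, and is approximate. In simulated counts for the first pair, 28 of 50 genes changed by 0.5 on the log2 scale, 48 of 50 changed by 1 and 8 of 11710 unchanged genes were called. Alternatives were DESeq2 1.42.0, its size factors, no filter, all 30 livers, the library GC slope, the replicate number as a block and leaving out each liver.

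The comparison, gene lists and tests were chosen with earlier results of these data known. Genes named are those the study measured, the 10 largest non-overlapping called changes in each direction with a mean of at least 10, up to 3 per list with the smallest adjusted p, and 5 per direction among genes called in both pairs; further list members were named after their values were seen. A count of overlap uses normalised counts. Some genes that this rule selects are not reported here.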

Additional observations from a re-analysis of the deposited data

Results flagged for a closer look

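In the genes named, a single liver lay far from the other 5 of its diet in 14 cases by a test on the gap relative to the range, among 276 groups of 6 livers checked. By chance this flags about 1 in 20 groups. Soy-20% liver 5 was the highest of its diet for Cyp2c69 (16.1 normalised counts, others at most 6.09), Clec2h (243, others at most 115.0), Cib3 (46.1, others at most 25.1) and Cyp39a1 (90.1, others at most 65.5). Cas-5% liver 5 was the highest for Scd1 (38820.3, others at most 23009), Orm1 (1337, others at most 662) and Aqp8, a water channel (1491, others at most 966), and the lowest for Gss (398, others at least 434). All of these livers kept their side of the other diet. Cas-5% liver 1 was high for Cps1 (5683, others at most 4000), liver 2 for Slc34a2 (43.5, others at most 20.2), liver 3 for Slc38a4, an amino acid transporter (5791, others at most 4824), and liver 4 low for Cyp3a25 (2461, others at least 2947). Soy-20% liver 1 was high for Hjv (1324, others at most 974) and liver 4 for Cyp2f2 (14112, others at most 11710.2).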

How the results depend on the processing

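The 2062 genes called became 2157 with DESeq2 (2000 shared), 2067 with DESeq2 size factors (2054 shared), 1873 with all 30 livers (1676 shared), 1968 with the library GC slope (1819 shared), 2098 without a filter (1982 shared) and 1743 to 2000 when a liver was left out. Without both Soy-20% livers 1 and 6, which was tried after the data were seen, 1415 were called (1305 shared), and of genes called in both pairs 54 had one direction and 481 opposite ones. With the replicate number as a block, 1883 were called (1758 shared). Same-numbered livers of the diets did not deviate together (correlations of -0.097 to 0.10, against -0.17 to 0.20 for other pairs). No pairing of the mice by number was seen, and a weak one would not show in this check. Of genes called in both pairs with one direction there were 38 with the library GC slope in place of 72, and 50 to 93 when a liver was left out; opposite calls ranged from 527 to 619 without a liver. In the second pair 1438 genes were called with the GC slope in place of 2078. No named gene reversed. Of 828 values of named genes under other settings 11 lost their call, and of 1656 without a liver 34 did. Of list counts, 22 of 336 and 49 of 672 moved by over 1.5 times, mostly counts below 5. Without Soy-20% liver 3, 6 rather than 2 female-biased genes were higher. Ribosomal protein rises ranged from 35 to 51, respiratory chain falls from 53 to 64 and ATF4 list rises from 19 to 20 without a liver. The log2 fold change of Cyp2c69 was 5.36 without Soy-20% liver 5. The depth limits genes near 10 counts, where a liver's value rests on few reads. The replicates are mice, and no labelled batch was available.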

Other observations

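The genes below were chosen after their values had been seen and lie outside the lists, and no theme among them was tested. Notum, a secreted Wnt inhibitor, measured 454 to 665 (median 548) on Cas-5% and 206 to 389 (median 308) on Soy-20% (log2 fold change 0.88, SE 0.14, adjusted p = 0.00033 by edgeR, adjusted p = 0.1 in the fit of all 30 livers). Tbx3, a transcription factor, measured 623 to 986 (median 866) on Cas-5% and 315 to 572 (median 484) on Soy-20% (log2 fold change 0.88, SE 0.14, adjusted p = 0.00034), and the cell cycle gene Ccnd1 637 to 1115 (median 806) on Cas-5% and 337 to 498 (median 425) on Soy-20% (log2 fold change 1.05, SE 0.13, adjusted p = 2.2e-05). Avpr1a, a vasopressin receptor, measured 350.4 to 633 (median 485) on Cas-5% and 57.9 to 229 (median 161) on Soy-20% (log2 fold change 1.66, SE 0.24, adjusted p = 0.00013). The diets did not overlap in these 4 genes. The Wnt feedback gene Axin2 was higher with overlap (log2 fold change 0.80, SE 0.18, adjusted p = 0.0062), Lgr5, a receptor that amplifies Wnt signals, was at the threshold (log2 fold change 0.53, SE 0.18, adjusted p = 0.045) and lost its call on leaving out any one of Soy-20% livers 1, 2, 3 and 5 or Cas-5% livers 1, 2 and 6 (adjusted p = 0.054 to 0.11), with the library GC slope (0.089) or with the replicate block (0.05), and Glul, glutamine synthetase, the standard pericentral marker, was not called (log2 fold change 0.13, SE 0.073, adjusted p = 0.24). Lgr5 was also not called without both Soy-20% livers 1 and 6 (adjusted p = 0.087). In the second pair Ccnd1, Avpr1a and Axin2 were not called (adjusted p = 0.28, 0.66 and 0.96), nor were Tbx3 and Lgr5 (adjusted p = 0.051 and 0.74). There Notum was higher on Soy-10% (log2 fold change -0.59, SE 0.11, adjusted p = 0.0018) and Glul lower on Soy-10% (log2 fold change 0.40, SE 0.089, adjusted p = 0.0056). The difference between the pairs was not tested.

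Transporters and early response genes differed as well. Slc7a7, a chain of a cationic amino acid exporter, measured 92.2 to 114 (median 102) on Cas-5% and 21.1 to 41.8 (median 33.5) on Soy-20% (log2 fold change 1.63, SE 0.14, adjusted p = 7.9e-07). Mfsd2a, a carrier of lysophospholipids, measured 21.1 to 141 (median 103) on Cas-5% and 142 to 1026 (median 407) on Soy-20% (log2 fold change -2.45, SE 0.42, adjusted p = 0.00064), and Fabp5, a fatty acid binding protein, 44.0 to 86.6 (median 59.7) on Cas-5% and 81.1 to 683 (median 270.2) on Soy-20% (log2 fold change -2.27, SE 0.45, adjusted p = 0.0019). Mfsd2a did not overlap between the diets, and Fabp5 did. Aqp8 measured 669.7 to 1491 (median 875) on Cas-5% and 1931 to 5858 (median 3358) on Soy-20% (log2 fold change -1.88, SE 0.23, adjusted p = 2.2e-05). The early response genes Dusp1 (log2 fold change -1.14, SE 0.15, adjusted p = 4.2e-05) and Jun (log2 fold change -1.03, SE 0.26, adjusted p = 0.0098) were lower on Cas-5%, the former without overlap, and Jun was not called without Soy-20% livers 1 and 6 (adjusted p = 0.055).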
